A study of Mus musculus with 24 samples.

Results

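Cirbp and Rbm3 are the genes of the cold-inducible RNA-binding proteins, and both were taken from the deposited table by their symbols, as 2 of 14027 genes. The series measured total RNA of mouse pancreatic alpha cells, which make glucagon, and beta cells, which make insulin, at 6 times of day. Time is the zeitgeber time (ZT, hours after lights-on) of islet isolation, at ZT0, 4, 8, 12, 16 and 20. Each of the 12 groups of cell type and time had 2 libraries, so that each cell type had 12 and the series 24. All libraries came from a strain that the labels call a triple reporter mouse. Age, sex, feeding, the reporters and any temperature of animals or islets are not given in the labels, which name no treatment. Whether both libraries of a group stem from different animals is not stated, so p-values reflect only library-to-library spread, possibly technical.

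CIRBP and RBM3 are small proteins with a single RNA recognition motif and a glycine-rich tail, and their mRNAs accumulate when cells are cooled mildly. In nocturnal rodents body temperature is low in the light phase and high in the dark phase, and in cultured cells such daily temperature cycles alone drive Cirbp. CIRBP binds transcripts that include Clock mRNA, and both proteins are known to influence which polyadenylation site a transcript uses. Heat shock genes controlled by HSF1 respond to warming and are used as the counterpart of these genes in studies of daily temperature cycles.

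Cirbp (ENSMUSG00000045193) lies on chromosome 10 from 80165985 to 80172786 on the + strand of GRCm38, the assembly that mm10 names. GENCODE M21 gives it 7 transcripts, of which 2 are protein coding, 4 retain an intron and 1 is a target of nonsense-mediated decay. Rbm3 (ENSMUSG00000031167) lies on chromosome X from 8138975 to 8145880 on the - strand, with 11 transcripts, of which 6 are protein coding and 2 retain an intron. Levels are given in RPKM, the number of reads divided by gene length and by sequencing depth times a scaling factor of each library. These factors were 0.9771 to 1.145 in alpha and 0.8479 to 0.9925 in beta libraries. The gene length that the Cirbp values imply, 2604 bases, equals the merged length of all its annotated exons, and the Rbm3 values imply 4907 bases where the annotation has 4698. A level here therefore covers spliced and intron-retaining transcripts together, and a shift between them cannot be seen in it. Rbm3 is uncertain in 2 further ways: a pseudogene copy exists, and the antisense gene Rbm3os overlaps Rbm3 over 452 bases and has no row of its own in the table.

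The promoter of Cirbp is shown because it holds a short sequence named for the cold response of this gene. The 250 bases before the transcript start at 80167839 were searched in the RefSeq sequence of GRCm38.p6. The first 189 of them, chr10:80167589-80167777 on the + strand, precede the exons that begin near that start and lie upstream of 6 of the 7 GENCODE transcripts, in an intron of the other. They are printed 5′ to 3′, with the cold-responsive octamer and the CCAAT boxes in capitals:
Cirbp promoter: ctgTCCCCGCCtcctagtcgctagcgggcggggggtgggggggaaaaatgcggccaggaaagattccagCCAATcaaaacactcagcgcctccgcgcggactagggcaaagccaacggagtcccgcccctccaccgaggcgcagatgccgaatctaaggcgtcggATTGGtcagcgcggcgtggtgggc
The octamer TCCCCGCC, known as the mild cold-responsive element, was found once, 247 bases before the start. It occurred on either strand in 4.64% of 32851 promoter windows of the same length. As the promoter is shown for this octamer, that share is no test of its presence. The gene had 2 such windows, and the other is not described. CCAAT was found 2 times, 181 bases before the start and, on the other strand, 85 bases before it (33.8% of windows held it). The GC box GGGCGG was found 3 times (32.7% of windows). No E-box CACGTG, the site of CLOCK and BMAL1, was found (6.02% of windows held it), and no heat shock element core GAANNTTC (6.69%). None of the matches overlapped another. A match is a run of letters in this window and was not tested as a binding site.

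The hormone genes fitted the labels of all libraries. Gcg, the glucagon gene, was at 95800 to 165000 RPKM in alpha cells and at 36.6 to 1910 RPKM in beta cells, and Ins2 at 127000 to 240000 RPKM in beta cells against 282 to 3640 RPKM in alpha cells. Library depth ranged from 4944982 to 12364190 reads. Cirbp was covered by 585 to 1536 reads per library and Rbm3 by 163 to 554. Counting error, which is all that these figures cover, was 2.55% to 4.13% for Cirbp and 4.25% to 7.83% for Rbm3.

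Cirbp rose from ZT0 to ZT8 and fell after ZT12 in both cell types. Its highest time mean was 2.18 times (alpha) and 2.14 times (beta) its lowest. In alpha cells the libraries of replicates 1 and 2 had 21 and 25.4 RPKM at ZT0, 42.3 and 32.0 at ZT4, 50.1 and 47.2 at ZT8, 39.6 and 48.5 at ZT12, 22.7 and 25.5 at ZT16, and 24.7 and 20 at ZT20. The 4 libraries of ZT8 and ZT12, from 39.6 to 50.1 RPKM, lay above the 6 of ZT16, ZT20 and ZT0, from 20 to 25.5 RPKM, with no overlap, and the 2 of ZT4 lay between these ranges or within the upper of them. In beta cells Cirbp had 30.1 and 28.5 RPKM at ZT0, 44.1 and 30.3 at ZT4, 56.8 and 51.6 at ZT8, 45.8 and 54.9 at ZT12, 25.3 and 25.4 at ZT16, and 27.1 and 24.7 at ZT20. Again all 4 libraries of ZT8 and ZT12 (45.8 to 56.8 RPKM) were above all 6 of ZT16, ZT20 and ZT0 (24.7 to 30.1 RPKM). These times were grouped by the Cirbp values themselves, and the share of all genes that separate so was not counted. The lack of overlap is a description and no test. In RNA of many cells, a change in level per cell and a change in the share of cells that hold the transcript cannot be told apart. The largest gap between replicates was at ZT4, where replicate 1 exceeded replicate 2 by 0.40 (log2) in alpha and 0.54 in beta cells.

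**Figure D1:**
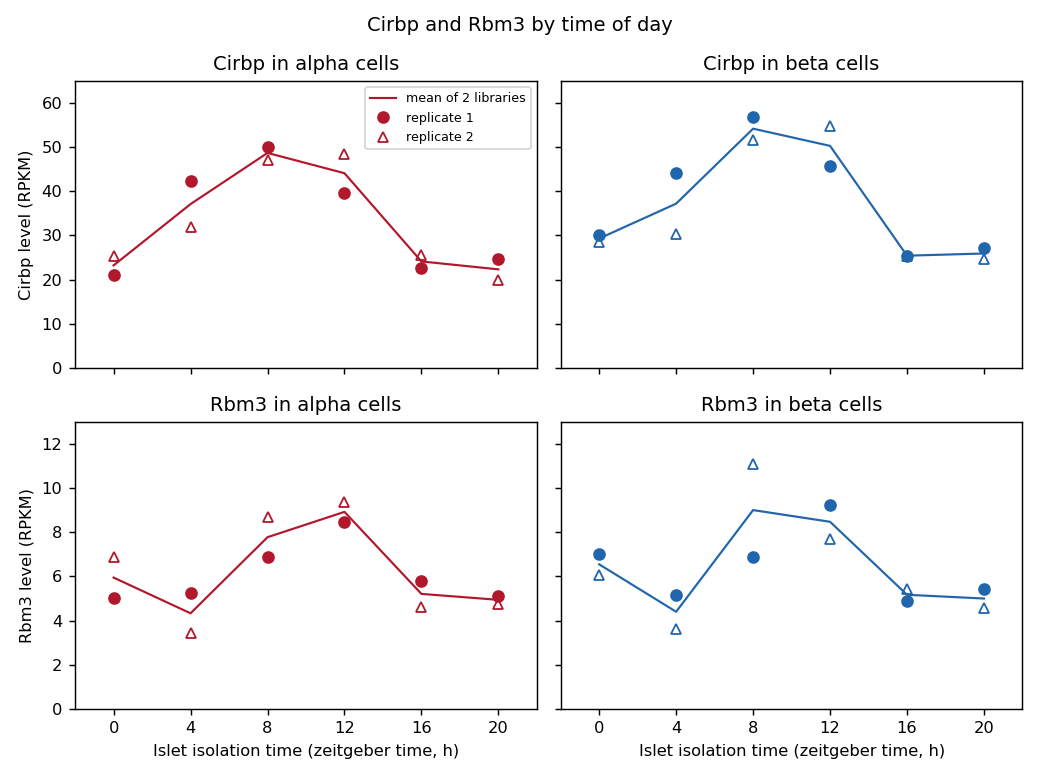
Levels of Cirbp (upper panels) and Rbm3 (lower panels) in RPKM against islet isolation time in alpha cells (left, red) and beta cells (right, blue). Each symbol is a library and lines join the means of the 2 libraries of a time. Cirbp is high at ZT8 and ZT12 in both cell types, with time means of 48.7 and 44.1 RPKM (alpha) and 54.2 and 50.3 RPKM (beta). The time mean of Rbm3 is lowest at ZT4.

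By time, the order of mean Cirbp levels in alpha cells was ZT8 (48.7 ± 2.07 RPKM, SD, n = 2), ZT12 (44.1 ± 6.24), ZT4 (37.1 ± 7.31), ZT16 (24.1 ± 2.03), ZT0 (23.2 ± 3.06) and ZT20 (22.3 ± 3.31). In beta cells it was ZT8 (54.2 ± 3.68 RPKM), ZT12 (50.3 ± 6.43), ZT4 (37.2 ± 9.77), ZT0 (29.3 ± 1.16), ZT20 (25.9 ± 1.69) and ZT16 (25.4 ± 0.0191). Neighbours in these orders overlapped in their replicates, except ZT4 and ZT16 in alpha cells, and in beta cells ZT12 and ZT4, ZT4 and ZT0, and ZT0 and ZT20. The last of these gaps were small beside the daily range. The step of 4 h between ZT12 and ZT16 held most of the fall in both cell types.

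The time course was fitted with a 24 h cosine per cell type in limma over all 24 libraries, with Benjamini-Hochberg adjustment over 14027 genes and a threshold of 0.05. Cirbp was called rhythmic in alpha cells, with a fitted peak 2.42-fold above the trough (log2 1.28, SE 0.16, adjusted p = 0.00023). Its p-value there was number 24 from the lowest, where 9.66% of all genes (1355) were called. Cirbp was also called in beta cells, at 2.22-fold (log2 1.15, SE 0.16, adjusted p = 0.00041, number 73 from the lowest), where 16% of genes (2241) were called. The fitted peaks were at ZT 8.54 ± 0.49 h in alpha and ZT 8.47 ± 0.55 h in beta cells (SE). Peaks between ZT6 and ZT12 were shared by 606 of the 1355 genes called in alpha cells and 754 of the 2241 called in beta cells. The swing was large beside other genes, whose median swing was 1.28-fold in alpha and 1.30-fold in beta cells.

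The F-test of any difference among the 6 times, which assumes no curve, also called Cirbp in both cell types. Its time means spanned 1.13 on the log2 scale in alpha cells (limma adjusted p = 0.0025, 3.79% of genes called) and 1.09 in beta cells (adjusted p = 0.0021, 8.64% of genes called). Both calls, and both rhythm calls, held in each of 47 other settings. Some of these left out only a library of the other cell type, which changes the shared spread and not the span or swing.

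The Cirbp rhythm did not pass the test for a difference between the cell types. The swing in alpha minus that in beta cells was 0.12 on the log2 scale, with a 95% interval from -0.36 to 0.60, and the test of both cosine terms gave a limma adjusted p = 1.0. That comparison called 0.0713% of all genes (10). The peak in alpha cells was 0.0636 h later, with a 95% interval from -1.46 to 1.58 h (exact two-sided permutation p = 0.93 over 46656 arrangements). Differences inside these intervals could not be told from 0. The intervals treat alpha and beta libraries as independent. The Cirbp replicates differed in the same direction in both cell types at 5 of 6 times, so the intervals may have the wrong width.

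The mean level of Cirbp over the day was 33.2 ± 11.6 RPKM in alpha cells, against 37.1 ± 12.6 RPKM for beta cells (SD over 12 libraries, time of day included). With time as a factor, beta cells were 1.12-fold higher (log2 alpha minus beta -0.16, SE 0.068, limma adjusted p = 0.035), and they were higher at 5 of 6 times. This is under the 2-fold change required for a call, which 20.7% of genes reached (1565 higher in alpha and 1338 higher in beta cells). The sign also turned to 0.05 under quantile normalization (adjusted p = 0.55), although that scaling moved the median of all genes only from 0.013 to 0.031, so no direction is drawn from it. The part of the scaling factors, mostly lower in beta libraries, in the cell type difference was not tested. Cirbp was among the higher expressed genes in every library, between the 85th and the 96th percentile of levels per length.

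Rbm3 was expressed lower, and its lowest time mean was at ZT4 in both cell types, when Cirbp was already higher than at ZT0. In alpha cells the libraries of replicates 1 and 2 had 5.02 and 6.88 RPKM at ZT0, 5.23 and 3.44 at ZT4, 6.88 and 8.68 at ZT8, 8.49 and 9.36 at ZT12, 5.79 and 4.63 at ZT16, and 5.12 and 4.75 at ZT20. In beta cells they had 7.02 and 6.07 RPKM at ZT0, 5.16 and 3.64 at ZT4, 6.89 and 11.1 at ZT8, 9.24 and 7.72 at ZT12, 4.90 and 5.45 at ZT16, and 5.45 and 4.55 at ZT20. High values were at ZT8 and ZT12 as for Cirbp, but the lowest library of those times, 6.88 RPKM (alpha) or 6.89 RPKM (beta), reached no higher than the highest library of ZT0, at 6.88 and 7.02 RPKM.

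By time, mean Rbm3 in alpha cells was highest at ZT12 (8.93 ± 0.61 RPKM, SD, n = 2), followed by ZT8 (7.78 ± 1.27), ZT0 (5.95 ± 1.32), ZT16 (5.21 ± 0.82), ZT20 (4.94 ± 0.26) and ZT4 (4.33 ± 1.26). In beta cells ZT8 (9.01 ± 3.0 RPKM) and ZT12 (8.48 ± 1.08) were followed by ZT0 (6.55 ± 0.67), ZT16 (5.17 ± 0.39), ZT20 (5.0 ± 0.64) and ZT4 (4.40 ± 1.07). The ratio of the highest to the lowest time mean, 2.06 in alpha and 2.05 in beta cells, was close in size to that of Cirbp, 2.18 and 2.14. The spread between replicates was wider for Rbm3 beside its level, and neighbouring times in these orders overlapped, except ZT12 and ZT0, and ZT0 and ZT16, in beta cells. The lowest place of ZT4 rested on replicate 2. Replicate 1 of ZT4, at 5.23 (alpha) and 5.16 RPKM (beta), was above the means of ZT20.

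The 24 h cosine did not call Rbm3 in either cell type. The fitted swing was 1.67-fold in alpha cells (log2 0.74, SE 0.29, limma adjusted p = 0.19) and 1.60-fold in beta cells (log2 0.68, SE 0.29, adjusted p = 0.21). Its fitted peaks, at ZT 10.9 ± 1.5 h and ZT 10.1 ± 1.6 h, rest on fits that did not pass, and their difference of 0.80 h had a 95% interval from -3.82 to 5.42 h (exact two-sided permutation p = 0.59). The test of a difference of rhythm gave a limma adjusted p = 1.0, with a swing difference of 0.06 and an interval from -0.80 to 0.91.

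The test of any difference among the 6 times called Rbm3 in beta cells, with time means spanning 1.01 on the log2 scale (limma adjusted p = 0.041). In alpha cells the span was 1.06 and the test did not pass (adjusted p = 0.068). Neither result is firm. The call in beta cells was lost in 27 of 47 other settings, and in alpha cells 6 of 47 gained it. Leaving out either alpha library of ZT8, ZT12, ZT16 or ZT20, which share the estimate of spread, ended the call (limma adjusted p from 0.051 to 0.059). So did leaving out either beta library of ZT12, ZT16 or ZT20 (adjusted p from 0.052 to 0.10). In alpha cells the test passed without replicate 1 of ZT4 (span 1.36, adjusted p = 0.040) and, just, without replicate 2 of beta ZT0. Without replicate 2 of ZT4 in beta cells the span was 0.81 (adjusted p = 0.094), and without replicate 2 of ZT8 it was 0.96 (adjusted p = 0.084).

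Mean Rbm3 over the day was 6.19 ± 1.86 RPKM in alpha cells, against 6.44 ± 2.12 RPKM for beta cells (SD over 12 libraries). The difference, alpha minus beta, was -0.05 on the log2 scale (SE 0.089, limma adjusted p = 0.63), with a 95% interval from -0.24 to 0.14. Rbm3 lay between the 36th and the 69th percentile of levels per length, and Cirbp was on average 5.30 times (alpha) and 5.73 times (beta) as high per length.

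Rbm3 differed between the replicates of ZT4 and ZT8 in the same direction as immediate early genes, such as Fos and Egr1, which are induced within minutes by stimulation or by taking tissue apart. At ZT4 replicate 1 was above replicate 2 in Rbm3 by 0.60 (log2) in alpha and 0.50 in beta cells. The summed level of 14 immediate early genes there was 1440 RPKM in replicate 1 and 550 RPKM in replicate 2 of alpha cells, and 683 and 355 RPKM in beta cells. At ZT8 the order was the opposite: Rbm3 was lower in replicate 1 by 0.33 in alpha and 0.69 in beta cells, and the immediate early genes were at 422 against 2700 RPKM and at 244 against 1140 RPKM. Correlations were taken over all 24 libraries, centred on each cell type. Rbm3 correlated positively with all 14 of these genes (median 0.44, range 0.079 to 0.51, against a median of 0.011 over all genes). Cirbp did so with 9 of 14 (median 0.047, range -0.36 to 0.19). At ZT4 the replicates of Cirbp differed in the same direction as these genes, by 0.40 and 0.54, and at ZT8 in the opposite direction, by 0.09 and 0.14. At the other 4 times 3 of 8 replicate pairs of Rbm3 differed in the direction of the immediate early genes. The other 5 differed in the opposite one. For Cirbp 5 of these 8 pairs had the same direction and 3 the opposite one. The part of the immediate early genes in the Rbm3 values was not tested.

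**Figure D2:**
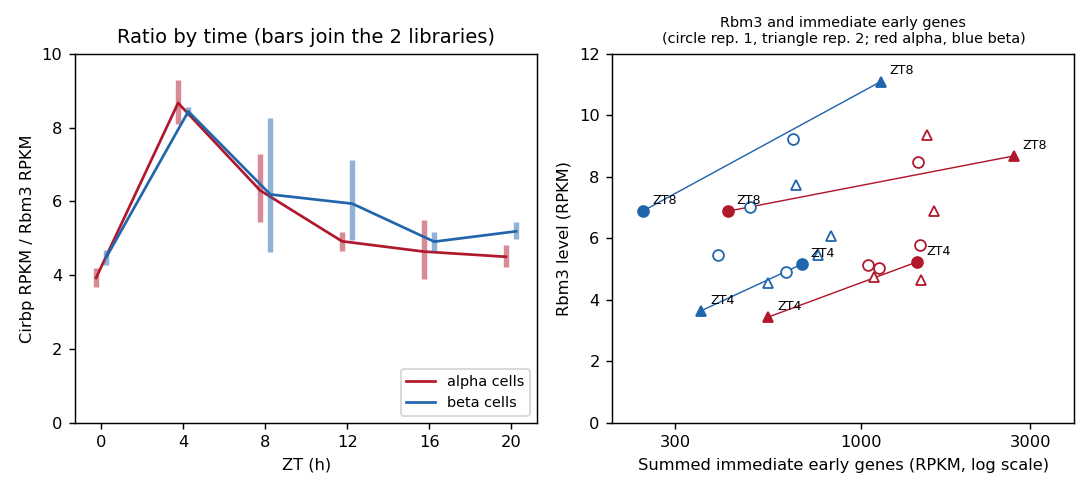
Left, the ratio of Cirbp to Rbm3 levels (RPKM over RPKM) against ZT, with lines joining the time means and bars joining the 2 libraries. Right, Rbm3 level against the summed level of 14 immediate early genes (RPKM, log axis), 1 symbol per library, with the replicates of ZT4 and of ZT8 filled and joined. The ratio is highest at ZT4, at 8.67 in alpha and 8.44 in beta cells, and all 4 joined lines rise from left to right.

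The ratio of Cirbp to Rbm3 per length, looked at after the values were seen, was highest at ZT4 in both cell types and lowest at ZT0. It averaged 8.67 at ZT4 (8.09 and 9.29 in the 2 libraries) and 3.93 at ZT0 (3.69 and 4.19) in alpha cells. In beta cells it averaged 8.44 at ZT4 (8.32 and 8.55) and 4.49 at ZT0 (4.29 and 4.69). The libraries of these 2 times did not overlap in either cell type, but the times were picked as the extremes, so this is no test. At ZT4 the mean of Cirbp was higher and that of Rbm3 lower than at ZT0. A 24 h cosine in the log2 ratio had a permutation p of 0.055 (alpha) and 0.15 (beta), which were 0.11 and 0.15 after adjustment over both.

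Library by library, Cirbp and Rbm3 were high together at ZT8 and ZT12, and the ZT4 libraries stood off that relation. Over the 12 alpha libraries Pearson's r was 0.60 (permutation p = 0.043, 0.086 adjusted over a family of 4) and Spearman's rho 0.57 (p = 0.059). Over the 12 beta libraries r was 0.67 (permutation p = 0.017, adjusted 0.068) and rho 0.65 (p = 0.026). Without the 2 libraries farthest from the Cirbp median, r was 0.47 in alpha cells (permutation p = 0.17) and 0.70 in beta cells (permutation p = 0.025), so without those libraries the p in alpha cells was above 0.05. Libraries of the same time are not spread at random, and the differences between replicates, which hold no time of day, gave r = 0.59 (exact permutation p = 0.28) and r = 0.26 (exact permutation p = 0.78), over 6 times.

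**Figure D3:**
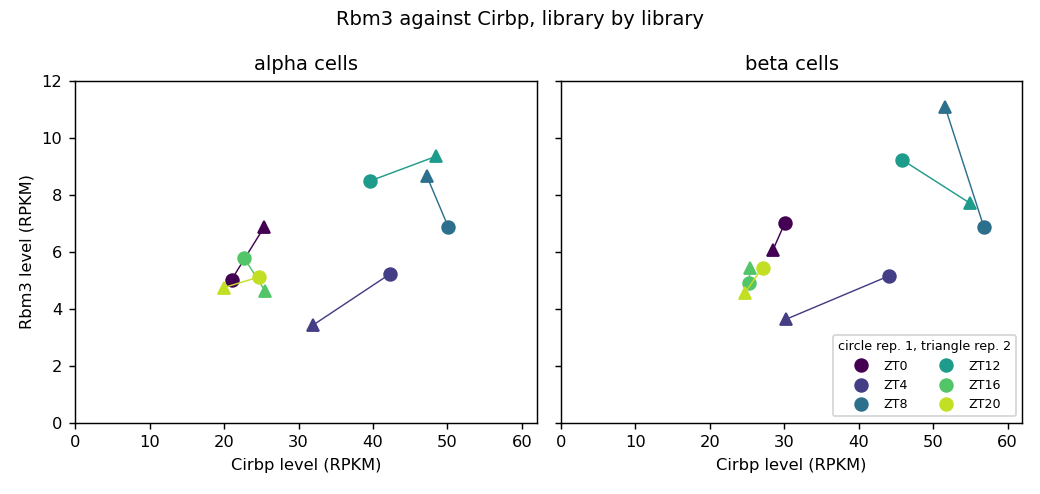
Rbm3 level against Cirbp level (RPKM) in the 12 alpha libraries (left) and 12 beta libraries (right), coloured by ZT, with the replicates of a time joined. The ZT8 and ZT12 libraries are at the upper right and those of ZT4 at the lower centre, with Rbm3 at 3.44 to 5.23 RPKM (alpha) and 3.64 to 5.16 RPKM (beta).

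Among 9397 named genes with a mean of at least 1 on the log2 scale, the patterns most like Cirbp over the 24 libraries, centred on each cell type, were those of Ddx3x (Pearson correlation 0.91), Eif4b (0.90), Akr1c12 (0.89), Iars2 (0.88) and Thra (0.88). Ddx3x encodes an RNA helicase, Eif4b a translation initiation factor, Iars2 the mitochondrial isoleucyl-tRNA synthetase and Thra a thyroid hormone receptor. The most opposite were Fkbp4 (-0.91), Ascc3 (-0.91), Cry1 (-0.90), Memo1 (-0.89) and Dhx29 (-0.89). Fkbp4 encodes a co-chaperone of HSP90 and Cry1 a repressor of the clock. Eif4b swung 2.42-fold in alpha cells with a peak at ZT 8.21, close in both to Cirbp. In beta cells Eif4b swung 1.67-fold with a peak at ZT 7.62, against 2.22-fold and ZT 8.47 for Cirbp. Rbm3 was number 597 in likeness to Cirbp, at 0.63, and Cirbp was number 83 in likeness to Rbm3.

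The patterns most like Rbm3 were those of Arpc1b (0.82), Hnrnpa1 (0.81), Erf (0.79), Hdac3 (0.78) and Xrn2 (0.76). Hnrnpa1 encodes an RNA-binding protein of splicing and Xrn2 a nuclear exonuclease that acts in transcription termination. The most opposite were Plod3 (-0.89), Plod1 (-0.89), P4ha1 (-0.89), Zfr (-0.86) and Sirpa (-0.84). Plod1, Plod3 and P4ha1 all encode hydroxylases of collagen in the endoplasmic reticulum. Of these 10 genes Hnrnpa1 and Hdac3 passed the rhythm test in alpha cells (limma adjusted p = 0.037 and 0.040), and none did in beta cells. These likenesses share libraries and depth with both members, and are a description only.

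The HSF1-driven heat shock genes, all 22 of which were measured, ran mostly against Cirbp. The rhythm test called 5 of them for alpha and 6 for beta cells, beside 9.66% and 16% of all genes. Each called gene peaked between ZT18 and ZT24. Of all called genes, 460 of 1355 in alpha and 859 of 2241 in beta cells peaked in that window. Hsph1, a chaperone of the HSP110 family, swung 2.60-fold with a peak at ZT 19.4 in alpha cells (limma adjusted p = 0.035) and 2.93-fold at ZT 19.1 in beta cells (adjusted p = 0.013). Chordc1, an HSP90 co-chaperone, swung 1.67-fold (adjusted p = 0.022) and 1.74-fold (adjusted p = 0.0092). Stip1, Fkbp4 and Hspa4 were called in both cell types as well, with peaks from ZT 18.3 to ZT 21.1. Bag3, named after its value was seen, was the further gene called in beta cells (1.45-fold, adjusted p = 0.048), and had an adjusted p of 0.48 in alpha cells. These peaks lay about opposite to those of Cirbp, at ZT 8.54 and 8.47. Of the 22 genes 19 correlated negatively with Cirbp over the 24 libraries (median -0.50), where 6827 of all 14027 genes did (median 0.018), and their median with Rbm3 was -0.22.

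The test of any difference among the 6 times called 1 of the 22 in alpha and 7 in beta cells, beside 3.79% and 8.64% of all genes. In alpha cells that gene was Fkbp4 (limma adjusted p = 0.041). Hspa4, Hsph1, Chordc1 and Stip1 did not pass it there (adjusted p from 0.059 to 0.16). Not every gene of the list was called by the rhythm test. Hspa1a and Hspa1b, the HSP70 genes most strongly induced by heat, were not called (adjusted p from 0.67 to 0.85), and their spread between libraries was large beside their means. Hspa1a was at 7.43 ± 7.20 RPKM (alpha) and 5.32 ± 3.72 RPKM (beta) (SD over 12 libraries). Their correlations with Rbm3 were 0.486 and 0.454, and with Cirbp 0.244 and 0.205. Between cell types only Hspb1 was called in this list, 2.42-fold higher in alpha cells (limma adjusted p = 4.8e-07).

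**Figure D4:**
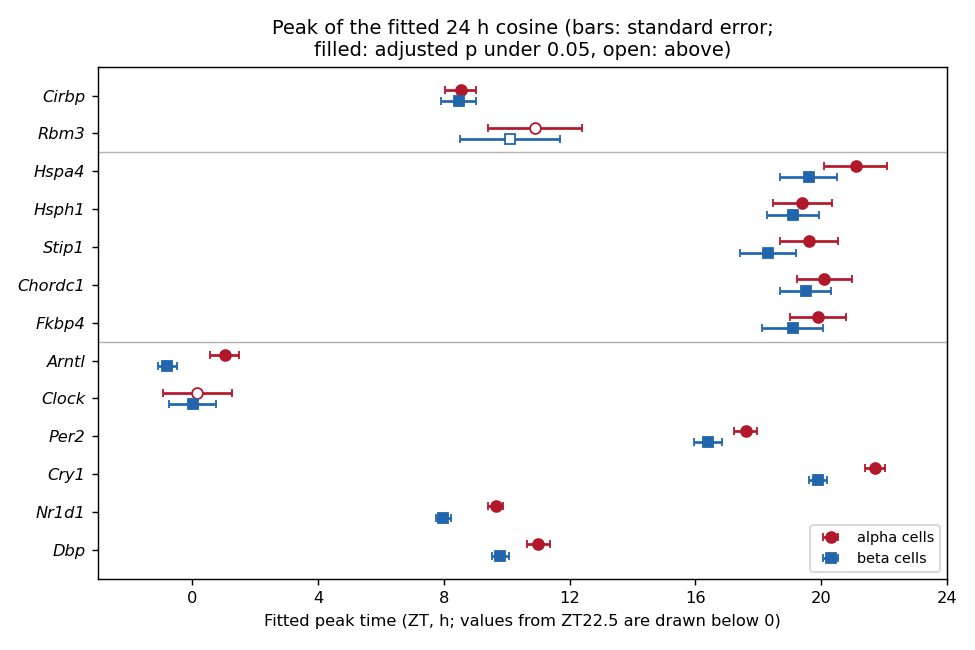
Fitted peak time (ZT, h, with SE bars) of Cirbp and Rbm3, of the 5 HSF1-driven genes called rhythmic in both cell types, and of 6 clock genes, in alpha cells (red circles) and beta cells (blue squares). Filled symbols passed the rhythm test and open ones did not. Cirbp peaks at ZT 8.54 and 8.47, near Nr1d1, and the heat shock genes peak between ZT 18.3 and ZT 21.1.

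The core clock genes gave the phase against which Cirbp can be placed. Of 18 measured, the rhythm test called 15 for alpha and 17 for beta cells, beside 9.66% and 16% of all genes. Their median swing was 4.23-fold and 4.54-fold, where that of all genes was 1.28-fold and 1.30-fold. Of the called clock genes, Nr1d1 lay nearest Cirbp in both cell types. It is the gene of the repressor REV-ERB alpha and peaked at ZT 9.65 in alpha and ZT 7.98 in beta cells, and its correlation with Cirbp was 0.85. Dbp, a direct target of CLOCK and BMAL1, peaked at ZT 11.0 and ZT 9.79. Arntl peaked at ZT 1.03 and ZT 23.2, Per2 at ZT 17.6 and ZT 16.4, and Cry1 at ZT 21.7 and ZT 19.9. Of the 15 clock genes called in both cell types, 14 peaked later in alpha cells, with a median delay of 1.49 h and a range from -0.06 to 2.29 h. The corresponding value was 0.06 h for Cirbp, and 0.33 to 1.49 h for the 5 heat shock genes. Whether Cirbp differs from the clock genes in this was not tested. Its interval, -1.46 to 1.58 h, treats alpha and beta libraries as independent, so it cannot decide this.

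Clock, whose mRNA CIRBP is known to bind, swung little. Its fitted swing was 1.23-fold in alpha cells (limma adjusted p = 0.066), which did not pass, and 1.36-fold in beta cells (adjusted p = 0.0057), with peaks at ZT 0.15 and ZT 0.01. Its correlation with Cirbp over the 24 libraries was -0.57 and with Rbm3 -0.62.

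The genes of temperature-linked splicing, the CLK and SRPK kinases that phosphorylate SR proteins and the SR proteins themselves, were measured as well. Of 20 measured, the rhythm test called 4 for alpha and 2 for beta cells, beside 9.66% and 16% of all genes. Srsf1, an SR splicing factor, swung 1.45-fold in alpha (limma adjusted p = 0.013) and 1.47-fold in beta cells (adjusted p = 0.0067), and Tra2a 2.37-fold (adjusted p = 0.039) and 2.32-fold (adjusted p = 0.032). Srpk1 (2.09-fold, adjusted p = 0.013) and Srsf11 (1.82-fold, adjusted p = 0.027) were called in alpha cells, and had adjusted p-values of 0.38 and 0.15 in beta cells. The called genes peaked from ZT 17.6 to ZT 20.1, in the part of the day when Cirbp was low. The list's median correlation was -0.22 with Cirbp and 0.10 with Rbm3.

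Of 14 listed genes of cold shock domain proteins and RBMX-like proteins, 12 were measured, and the rhythm test called 1 for alpha and 2 for beta cells, near the 9.66% and 16% of all genes. Hnrnpa1 (1.63-fold in alpha cells, peak ZT 9.70, limma adjusted p = 0.037) and Rbm4b (1.68-fold in beta cells, peak ZT 10, adjusted p = 0.0063) peaked in the same part of the day as Cirbp. Rbm14 (1.89-fold in beta cells, adjusted p = 0.019) peaked at ZT 19.4.

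Of 18 genes for the choice of polyadenylation sites, the step that CIRBP and RBM3 are known to influence, 2 were called rhythmic in each cell type, below or near the share of all genes. In alpha cells they were Cpsf6 (1.35-fold, peak ZT 19.2, limma adjusted p = 0.035) and Cstf2t (1.39-fold, peak ZT 5.44, adjusted p = 0.032). In beta cells they were Fip1l1 (1.34-fold, peak ZT 23.5, adjusted p = 0.0044) and Cpsf1 (1.32-fold, peak ZT 18.7, adjusted p = 0.041). Their median correlation with Cirbp was -0.40.

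Of 11 TRP channel genes linked to temperature sensing, 6 were measured and none was called rhythmic by limma in either cell type, beside 9.66% (alpha) and 16% (beta) of all genes. The cell type test with at least 2-fold called 5 of the 6, beside 20.7% of all genes, and 3 of them were higher in beta cells. Trpm5 was at 25.3 RPKM in beta cells against 0.281 RPKM in alpha cells, a 106-fold difference (limma adjusted p = 2.7e-15). Trpm3 was 13.6-fold (adjusted p = 2.3e-16) and Trpm2 5.08-fold (adjusted p = 1.7e-13) higher in beta cells. Trpa1 was 2.49-fold (adjusted p = 2.6e-06) and Trpv2, named after its value was seen, 2.21-fold (adjusted p = 1.1e-05) higher in alpha cells, both under 0.5 RPKM. Neither Cirbp nor Rbm3 reached that fold.

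Markers of other cell types that the samples could hold were summed in each library. The summed level of 8 of 10 acinar markers was 29.2 to 409 RPKM (alpha) and 38.1 to 369 RPKM (beta), and that of 3 of 5 endothelial markers 0.317 to 2.12 RPKM. Of these lists the acinar genes all correlated positively with Cirbp (median 0.21), and the endothelial genes had a median of 0.42, with 1 of 3 negative. The immune genes were all negative (median -0.22), as were 3 of 4 delta cell genes (median -0.28). Of all 14027 genes 6827 were negative. Immune markers (3 of 6 measured) summed to 0.453 to 12.3 RPKM. Delta cell markers (4 of 4) summed to 2510 to 5180 RPKM (alpha) and 645 to 1420 RPKM (beta). The cell type test called all 4 higher in alpha cells. None of the acinar, delta, endothelial or immune markers was called rhythmic by limma in either cell type. Of 6 stromal markers, which summed to 4.3 to 9.14 RPKM (alpha) and 0.517 to 1.65 RPKM (beta), Pdgfrb was called in alpha cells (2.96-fold, peak ZT 7.96, limma adjusted p = 0.038), and its correlation with Cirbp was 0.425. Of 8 beta cell markers, Mafa (5.76-fold, adjusted p = 0.032) and Pdx1 (adjusted p = 0.037) were called in alpha cells and correlated negatively with Cirbp. All 3 were singled out with their values known. The part of other cells in the Cirbp values was not tested. Leaving out the 3 libraries with most hormone reads of the other cell type kept both Cirbp rhythm calls. These reads were at most 0.51% of a library, and this step does not cover acinar, delta, stromal or other cells.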

How the data were processed

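Per the labels' protocols, stranded total RNA libraries were depleted of ribosomal RNA. STAR, edgeR and mm10 are named, without versions, in the submitters' processing notes. The table the authors deposited is in log2 RPKM, as its values show, with a prior count (mean 2.0). Whole reads were recovered from their steps for all 14027 genes (largest deviation from a whole number 8.3e-08), and RPKM was computed from these without a prior count. For counting, the annotation and strand setting are not given in the sources.

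Tests used the deposited log2 values in limma 3.58.1 (R 4.3.3) with trend and robust estimation, over 24 libraries, called at an adjusted p under 0.05. Single values were tested by permutation in SciPy 1.17.1 (100000 resamples where not exact). Named genes were the members, the 5 most and 5 least alike in pattern, and up to 4 of lowest p per list, with phase references from the clock. The members, lists and tests were chosen with earlier results of these data known. Alternatives changed the scale, filter, scaling, spread, mean-variance model (voom), samples, block and libraries.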

Additional observations from a re-analysis of the deposited data

How the results depend on the processing

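The Cirbp rhythm was called in 47 of 47 other settings in both cell types (limma adjusted p from 5.6e-05 to 0.0026 in alpha and 8.4e-05 to 0.0072 in beta cells), and the Rbm3 rhythm in none (0.075 to 0.41 and 0.084 to 0.44). Settings that left out only libraries of the other cell type kept the swing unchanged. The change of Rbm3 over time in alpha cells passed under quantile normalization (span 1.10, adjusted p = 0.031), and leaving out libraries gave spans from 0.849 to 1.36. That in beta cells, 1.01, was lost without trend and robust estimation (adjusted p = 0.062) and in a separate fit (0.12), and ranged from 0.809 to 1.35 with libraries left out. The cause was not tested.

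Whether replicate numbers pair alpha and beta libraries was checked: replicate differences correlated across genes by 0.726, 0.548, 0.509, 0.165, 0.147 and 0.031 at ZT0 to ZT20, so a pairing is not established at every time. With the replicate number as a block the Rbm3 change in beta cells kept its span of 1.01 and lost its call (adjusted p = 0.055), while a block of replicate number within time, added after the data were seen, kept it (adjusted p = 0.036). With the time mean removed and the block kept, the correlation of Cirbp with Rbm3 was 0.586 in alpha (permutation p = 0.22) and 0.213 in beta cells (permutation p = 0.63). With single libraries left out it ranged from 0.508 to 0.737 in alpha cells. The block within time raised the calls for a difference of rhythm from 10 to 359, with neither member among them.

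Counts over all genes moved more than the members. Rhythm calls in alpha cells were 2096 under quantile normalization and 312 to 2449 with libraries left out, and in beta cells 894 in a separate fit and 926 to 3132 with libraries left out. Difference calls were 44 on log2(RPKM + 1), 18 under quantile normalization, 5 without the 3 libraries with most hormone reads of the other cell type, and 1 to 15 with libraries left out. Cell type calls were 1602 on log2(RPKM + 1) and 1755 with a filter at a mean above 0. Change over time was called in alpha cells for 797 genes on log2(RPKM + 1), 1262 under quantile normalization, 884 with voom, 208 in a separate fit, 224 without those 3 libraries and 123 to 2251 with libraries left out. In beta cells it was called for 309 in a separate fit and 376 to 3260 with libraries left out. Swings of Rbm3 of the fitted size did not pass here, with 2 libraries per time and 163 to 554 reads per library. Whether either of these was the reason was not tested.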
